A study of Homo sapiens with 12 samples.

Results

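The data described here are the 2 libraries of 786-O, a human cell line derived from a clear cell renal carcinoma, out of 12 libraries in the series. One 786-O culture received a miR-29 mimic, a synthetic double-stranded RNA that adds miR-29 activity, and the other received a control mimic. Both were given at 10 nM by lipid transfection of cells in suspension, total RNA was taken after 48 h, and ribosomal RNA was removed before stranded sequencing. The other libraries come from 2 more renal carcinoma lines and serve only for comparison, namely 4 from A-498 (miR-29 mimic or control mimic, 2 each) and 6 from ACHN (miR-29 inhibitor or control inhibitor, 3 each), handled with the same dose and time. The 786-O values compare a single transfected culture with another, so they have no replicate check, and no p-value is given for them. The series holds no untransfected library, so a ratio does not tell a change with the mimic from one with the control mimic.

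MicroRNAs guide Argonaute proteins to messenger RNAs, mostly through pairing between the seed of the microRNA and sites in the 3′ UTR, and the bound transcript is translated less and degraded faster. The miR-29 family is best known as a brake on extracellular matrix genes, above all collagens, and its targets also include the de novo DNA methyltransferases and the TET enzymes, which start DNA demethylation. Every miR-29 site described in this report pairs with all or part of the seed that the family shares. The mature family members in RefSeq (GRCh38.p14) are therefore shown, with that seed, nucleotides 2 to 8, in capitals.
hsa-miR-29a-3p: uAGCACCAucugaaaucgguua
hsa-miR-29b-3p: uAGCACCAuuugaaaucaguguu
hsa-miR-29c-3p: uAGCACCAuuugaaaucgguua
The 3 sequences have the same seed and differ in the bases that follow it. The mature sequence that the study's methods give for the mimic carries this seed too but is not identical to any of the 3, and the control mimic is given by catalogue number only.

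The 786-O libraries held 44914022 reads in genes (control mimic) and 44384575 (miR-29 mimic), within the range of 39919554 to 70027392 over all 12 libraries. Of the reads of each library, 14.3% (control) and 18.3% (mimic) were assigned to no gene feature, a class that in this counting mode also takes reads in introns or across exon edges, and the part this difference plays in the ratios below was not tested. Expression is given as CPM, read counts divided by TMM-scaled library size, and the log2 ratio is the mimic library over the control library with a prior count of 2. Genes count as measured if the libraries summed to 100 counts or more. Intervals in parentheses beside log2 ratios are 95% intervals for the ratio that cover counting error only. A gene is called lower or higher at a ratio of 2-fold. Of 14 renal carcinoma markers, 12 reached 100 counts. PAX8, a kidney lineage transcription factor, had 516 and 635 CPM (control and mimic), and CDH6, a cadherin, 496 and 357 CPM. VIM, the intermediate filament protein vimentin, also on the list, had 3976 and 5118 CPM. CA9 and NDUFA4L2, common in clear cell tumours, stayed under 100 counts. None of 11 markers of blood, endothelial, smooth muscle, glial or liver cells reached 100 counts, and the highest count of any of them was 12.

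Of 13608 genes measured in 786-O, 956 (7.03%) were at least 2-fold lower and 397 (2.92%) at least 2-fold higher in the mimic library. Among the 11743 protein-coding genes, 829 (7.06%) were lower and 323 (2.75%) higher, with a median log2 ratio of -0.04. The lower side also reached further, with 109 protein-coding genes at least 4-fold lower against 21 at least 4-fold higher. Libraries of the same group in A-498 and ACHN differed far less from each other, with 9 to 20 genes (0.0667% to 0.141%) past 2-fold in each of 8 pairs, against 1353 (9.94%) here. That spread belongs to other cell lines and does not measure the variation between 786-O cultures. In 586 lower genes (of 829) and 209 higher genes (of 323) the whole counting interval lay beyond 2-fold.

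**Figure D1:**
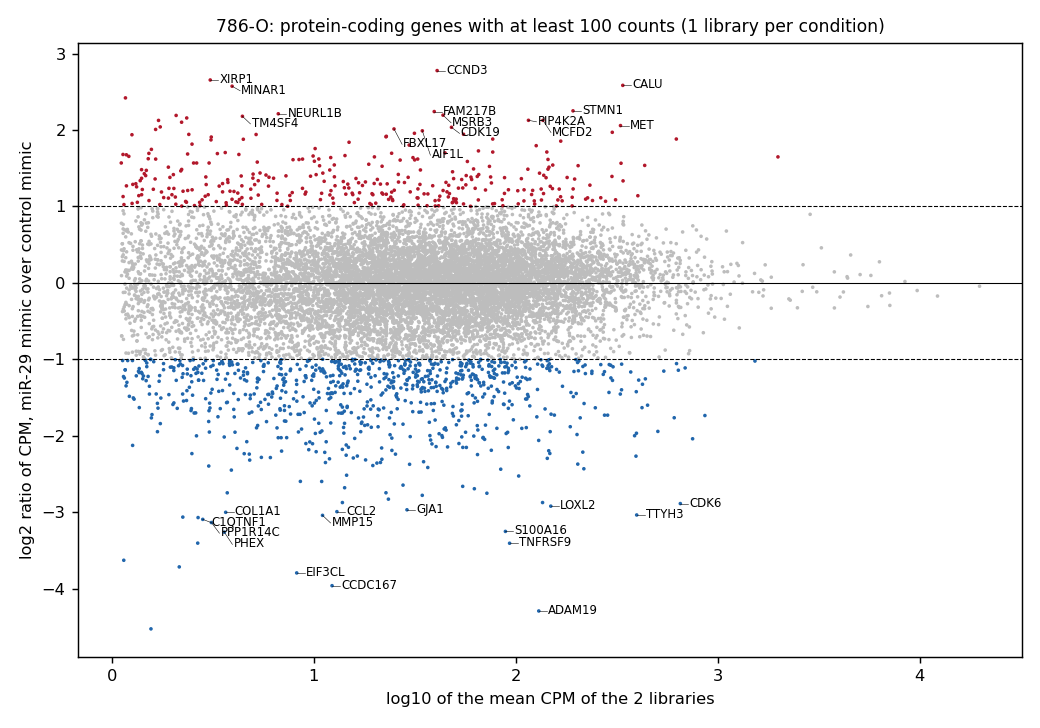
Each point is a measured protein-coding gene, with the log10 of its mean CPM on the x axis and its log2 ratio, miR-29 mimic over control mimic, on the y axis. Dashed lines mark 2-fold; 829 genes lie at or below the lower line (blue) and 323 at or above the upper line (red), and the 15 lowest and 15 highest genes with at least 5 CPM in a library are named.

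The lowest ratio among protein-coding genes with at least 5 CPM in either library was that of ADAM19, a membrane-anchored metalloprotease, with 247 CPM in the control and 12.6 CPM in the mimic library (log2 ratio -4.29, -4.42 to -4.18). CCDC167, a small coiled-coil protein, had 23.2 and 1.45 CPM (log2 ratio -3.96, -4.39 to -3.64). TNFRSF9, the costimulatory receptor 4-1BB, had 170.5 and 16 CPM (log2 ratio -3.41). All 3 hold a miR-29 site, as do the next pair of genes. S100A16, an EF-hand calcium-binding protein, had 161 and 16.9 CPM (log2 ratio -3.25, -3.37 to -3.15). TTYH3, a membrane protein of the tweety family, had 708 and 86.1 CPM (log2 ratio -3.04, -3.09 to -2.99). GJA1, the gap junction protein connexin 43, had 51.4 and 6.52 CPM (log2 ratio -2.97). The cell-cycle kinase CDK6, which acts with D-type cyclins in G1, had 1150 and 155 CPM (log2 ratio -2.89, -2.92 to -2.85). LOXL2, an enzyme that cross-links collagen, had 264 and 34.7 CPM (log2 ratio -2.92).

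The others of the 15 had lower CPM than most of these. MMP15, a membrane-type matrix metalloproteinase, had 19.8 and 2.36 CPM (log2 ratio -3.04), and CCL2, the monocyte chemoattractant, 23.2 and 2.87 CPM (log2 ratio -2.99). COL1A1, the main chain of type I collagen, had 6.56 and 0.779 CPM (log2 ratio -3.00, -3.62 to -2.56). PHEX, an endopeptidase of phosphate homeostasis, PPP1R14C, an inhibitor of protein phosphatase 1, and C1QTNF1, a secreted C1q-domain protein, had log2 ratios of -3.26, -3.14 and -3.10. EIF3CL, a translation initiation factor subunit, had 15.4 and 1.07 CPM (log2 ratio -3.80), while its near-identical copy EIF3C had 8.05 and 8.21 CPM (log2 ratio 0.03). Reads shared by the 2 copies cannot be assigned to either with certainty, so the EIF3CL value is uncertain. LOXL2 overlaps ENTPD4 on the same strand, whose log2 ratio was 0.20, and ADAM19 and PHEX also overlap another annotated gene on their strand.

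Of the 15 genes, 8 held at least 1 match to the miR-29 seed (TGGTGCT, pairing with nucleotides 2 to 8) in the longest annotated 3′ UTR. The windows below show such matches in 4 of them and in COL4A1 and LAMC1, as transcript sequence 5′ to 3′, with the match in capitals, and an A after it (an 8mer site) in capitals too. The match stands at the 3′ end of each window.
ADAM19, 832 nt after the stop codon (chr5:157480110-157480139, minus strand): ctctcattctccctctaatgtgTGGTGCTt
ADAM19, 1401 nt after the stop codon (chr5:157479541-157479570, minus strand): gcagcagggaaggagggccgtgTGGTGCTt
CCDC167, 194 nt after the stop codon (chr6:37482985-37483014, minus strand): gttccgggtctccagaaggacaTGGTGCTg
S100A16, 48 nt after the stop codon (chr1:153607479-153607508, minus strand): gcactggcctgatgccccgcccTGGTGCTc
S100A16, 365 nt after the stop codon (chr1:153607162-153607191, minus strand): tcctgacctccaaaggtcagctTGGTGCTt
TTYH3, 1388 nt after the stop codon (chr7:2663013-2663042, plus strand): aagtgggagcgaggctccccaaTGGTGCTt
COL4A1, 30 nt after the stop codon (chr13:110150326-110150355, minus strand): tgactcagctaatgtcacaacaTGGTGCTA
LAMC1, 1463 nt after the stop codon (chr1:183144231-183144260, plus strand): aagaaactattatctgacacacTGGTGCTA
Coordinates are in GRCh38 and the 3′ UTRs are those of GENCODE 44. Each site lies in the 3′ UTR of the gene named, and a match is a description of the sequence, not proof that the site is used.

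The highest ratio belonged to CCND3, cyclin D3, a partner of CDK6, with 10.4 CPM in the control and 71.3 CPM in the mimic library (log2 ratio 2.78, 2.64 to 2.93). CALU, calumenin, a calcium-binding protein of the secretory pathway, had 96.8 and 581 CPM (log2 ratio 2.58, 2.54 to 2.63). STMN1, stathmin, which destabilises microtubules, had 66.7 and 317 CPM (log2 ratio 2.25, 2.19 to 2.31). Both were moderately to highly read genes in which counting error is small. MET, the receptor for hepatocyte growth factor and a renal carcinoma oncogene, had 128 and 532 CPM (log2 ratio 2.06, 2.02 to 2.10). PIP4K2A, a phosphoinositide kinase, had 43.1 and 188 CPM (log2 ratio 2.13), and MCFD2, part of a cargo receptor between the endoplasmic reticulum and the Golgi, 50.8 and 222 CPM (log2 ratio 2.13). MSRB3, a methionine sulfoxide reductase, had 15.6 and 71.7 CPM (log2 ratio 2.19). CDK19, a kinase of the Mediator complex, FBXL17, an F-box protein of ubiquitin ligases, FAM217B and AIF1L, an actin-binding protein, had log2 ratios of 2.03, 2.01, 2.24 and 1.99. The remaining 4, XIRP1, MINAR1, TM4SF4 and NEURL1B, were at 0.811 to 2.34 CPM in the control library and had ratios from 2.18 to 2.65, with wider counting intervals (2.21 to 3.27 for XIRP1).

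The list of known miR-29 targets, 36 of 45 measured and 34 of them with a site, had 22 genes lower and none higher. Gene lists drawn up for this tissue and treatment were then described. All lists, that of known targets included, were chosen with earlier results of these data known. The number of measured members past 2-fold is to be read next to 7.06% lower and 2.75% higher among all protein-coding genes. The median ratio is to be read next to -0.04. Of 44 collagen chain genes, 19 were measured, 17 had a ratio under 0 (53% of all protein-coding genes did), 6 were at least 2-fold lower and none higher, with a median of -0.62. COL4A1 and COL4A2, the ubiquitous chains of basement membrane collagen, had 367 and 67.9 CPM and 235 and 61.0 CPM (log2 ratios -2.43 and -1.95). COL6A3, a chain of beaded-filament collagen VI, had 620.2 and 155 CPM (log2 ratio -2.0). Of the 6 lower collagen genes, 5 held a miR-29 site, as did 11 of all 19 measured. Among all protein-coding genes with a 3′ UTR, 17.8% held a site, and 45% of the lower ones. The COL4A2 site, in the isoform with the longest 3′ UTR, lies at chr13:110361425, while the gene ends near chr13:110513000.

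Laminins, the other network of the basement membrane, had 9 of 12 chains measured, 3 of them lower and none higher, with a median of -0.82. LAMC1, the gamma chain of most laminins, had 638 and 206 CPM (log2 ratio -1.63, -1.67 to -1.6), and LAMB3 had a log2 ratio of -1.51. Among 10 measured basement membrane partners the median was -0.81 and 4 were lower. SPARC, which binds collagen IV, had 652 and 135 CPM (log2 ratio -2.27, -2.31 to -2.23), and HSPG2, the heparan sulfate proteoglycan perlecan, 939.8 and 494 CPM (log2 ratio -0.93). NID2, nidogen, had a log2 ratio of -1.06.

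The enzymes that mature collagen shifted with it in part. The 4 measured lysyl oxidases were all under 0 (median -0.83), with LOXL2 the only one past 2-fold and LOX and LOXL1 at -0.86 and -0.81. Of 23 measured folding and processing enzymes, 6 were lower and none higher (median -0.43). PPIC, a prolyl isomerase of the endoplasmic reticulum, had 60.2 and 8.73 CPM (log2 ratio -2.78), COLGALT1, a collagen galactosyltransferase, 375 and 121 CPM (log2 ratio -1.64), and SERPINH1, the collagen chaperone HSP47, 177 and 57.9 CPM (log2 ratio -1.61). P4HB, the shared subunit of prolyl 4-hydroxylases, had 559 and 562 CPM (log2 ratio 0.01) although its 3′ UTR held a miR-29 site.

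Other matrix groups were mixed. Elastic fibre genes had a median of -0.35 with 1 of 10 lower, FBN1 (fibrillin 1), at 34.4 and 6.68 CPM (log2 ratio -2.36). Matricellular proteins had a median of -0.55 with SPARC and FSTL1 lower, the latter at 1329 and 399 CPM (log2 ratio -1.74), while THBS1, thrombospondin 1, had 2002 and 3727 CPM (log2 ratio 0.90) and CCN3 a log2 ratio of 1.64. Proteoglycans had a median of 0.14 over 11 genes, with LUM (lumican, -1.52) and SDC4 (syndecan 4, -1.08) lower, and VCAN, versican, had 1073 and 1057 CPM (log2 ratio -0.02). Of 11 matrix metalloproteinases and their inhibitors, 4 were lower and 1 higher. MMP2, gelatinase A, had 142 and 26.2 CPM (log2 ratio -2.44) and MMP14, which activates it, 143 and 56.2 CPM (log2 ratio -1.35). Of 24 ADAM and ADAMTS proteases, 5 were lower and 2 higher, among them ADAM12 (log2 ratio -2.19) and ADAMTS15 (-2.83) on the lower side.

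**Figure D2:**
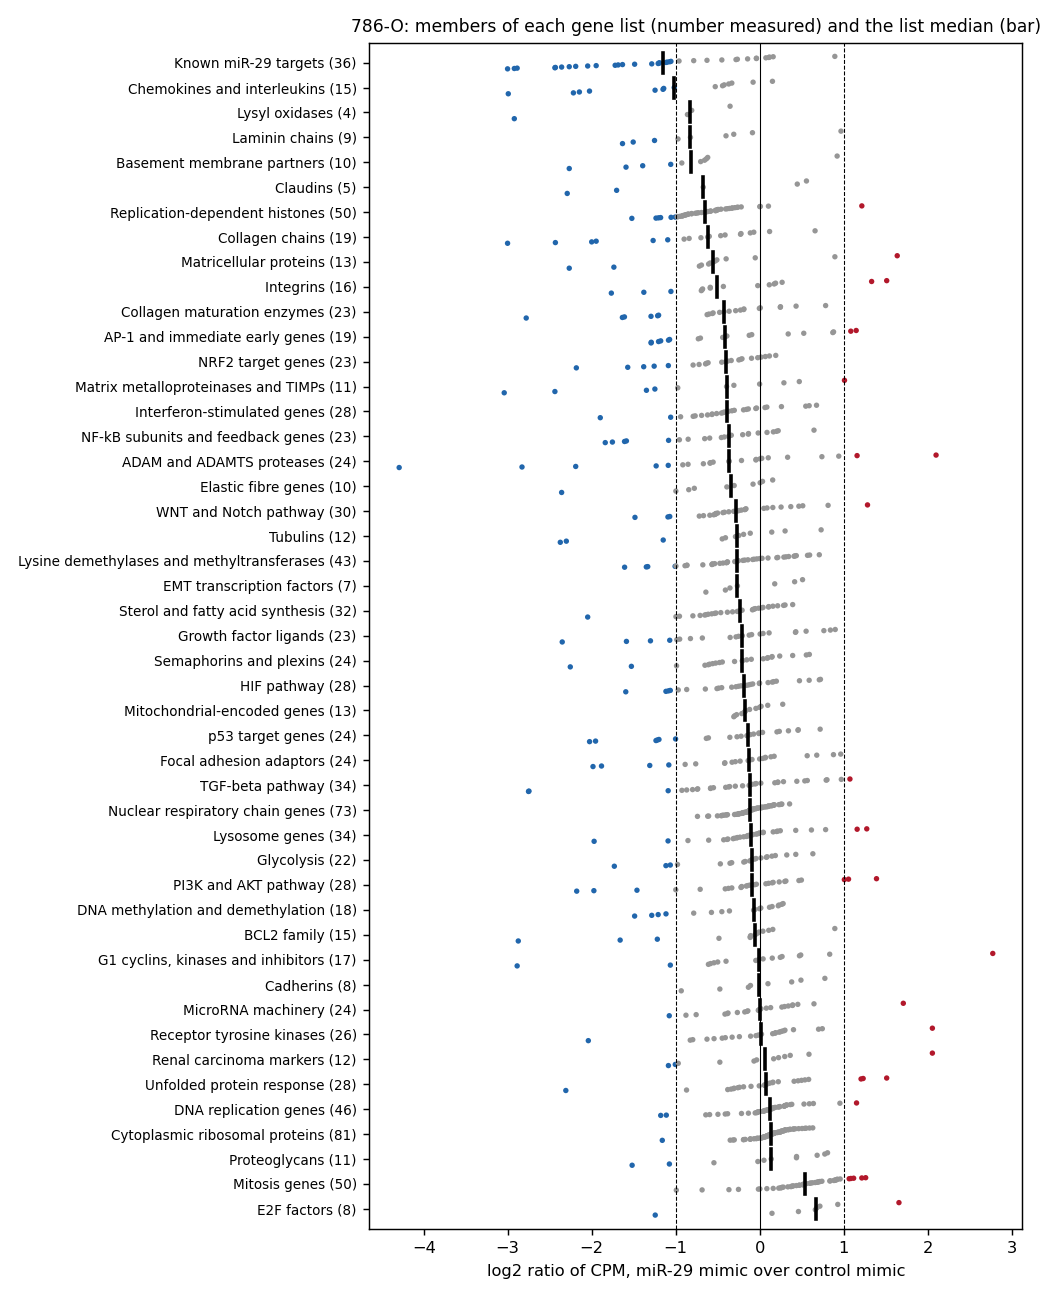
Rows are gene lists, each with at least 4 measured members in 786-O (the number in parentheses), each point a member's log2 ratio of CPM, miR-29 mimic over control mimic, blue at 2-fold lower, red at 2-fold higher, and the black bar the median. Known miR-29 targets, chemokines and interleukins, lysyl oxidases, laminins and basement membrane partners have the lowest medians, and mitosis genes (0.54) and E2F factors (0.67) the highest.

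Receptors and adaptors that link cells to the matrix were split. Of 16 measured integrins, 3 were lower and 2 higher (median -0.51). ITGA5, the alpha chain of the fibronectin receptor, had 322 and 94.7 CPM (log2 ratio -1.77), and ITGA6, the alpha chain of laminin receptors, 106 and 40.6 CPM (log2 ratio -1.38). ITGB8, a chain that activates latent TGF-beta, had 193 and 487 CPM (log2 ratio 1.33). ITGA3, with the highest CPM of the list in the control library, had a log2 ratio of 0.12. Only 1 of the 16 integrin genes held a miR-29 site. Focal adhesion adaptors had a median of -0.13 with 4 of 24 lower, LIMS1 (-1.99), NEDD9 (-1.88), FERMT2 (-1.31) and ILK (-1.08), the integrin-linked kinase. Claudins (5 measured, median -0.67, which turned to 0.23 with a minimum of 10 counts) included CLDN1 at 26.1 and 5.30 CPM (log2 ratio -2.29). The 7 measured transcription factors of epithelial-mesenchymal transition had no member past 2-fold, and their extremes were SNAI1 (-0.64) and PRRX1 (0.51). Of 12 tubulins, TUBA1A (-2.37), TUBB2A (-2.30) and TUBA4A (-1.15) were lower, while TUBB, with the highest CPM of the list in the control library, had a ratio of -0.11. CDC42, a small GTPase that organises actin, had 413 and 193 CPM (log2 ratio -1.10) with 4 miR-29 sites in its 3′ UTR.

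Among 18 measured genes of DNA methylation and demethylation, the 4 lower ones were the 3 TET dioxygenases and TDG, the glycosylase that removes their products, and none was higher. TET3 had 115 and 41.0 CPM (log2 ratio -1.49, -1.57 to -1.41) with 10 miR-29 sites, TET1 34.6 and 14.2 CPM (log2 ratio -1.29), TET2 76.8 and 33.2 CPM (log2 ratio -1.21) and TDG 36.7 and 16.9 CPM (log2 ratio -1.12). All 4 hold miR-29 sites. The TET2 site, in the isoform with the longest 3′ UTR, lies at chr4:105242311, while the gene ends near chr4:105280000. The de novo methyltransferases DNMT3B and DNMT3A had log2 ratios of -0.79 and -0.45, and the maintenance enzyme DNMT1 0.22. Of 43 histone lysine demethylases and methyltransferases, 4 were lower and none higher (median -0.26), KDM7A (-1.61), KMT5C (-1.35), KDM6B (-1.33) and NSD1 (-1.01).

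Of 50 measured replication-dependent histone genes, 46 had a ratio under 0, 6 were past 2-fold lower and 1, H2BC14, past 2-fold higher, with a median of -0.65, and 2 of the 50 held a miR-29 site. H2BC14 had 66 and 158 counts (log2 ratio 1.22, 0.82 to 1.68), so its counting interval spans the 2-fold threshold. H1-2, a linker histone, had 339 and 172 CPM (log2 ratio -0.98) and H2AC11 143 and 60.7 CPM (log2 ratio -1.23). Most transcripts of these genes end in a stem-loop rather than a poly(A) tail, and they are retained by sequencing that depletes ribosomal RNA.

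Genes of cell division lay on the other side. Of 50 mitosis genes, all measured, 45 had a ratio of 0 or more, 5 were at least 2-fold higher and none lower, with a median of 0.54. BUB3, of the spindle checkpoint, had 87.1 and 209 CPM (log2 ratio 1.26), UBE2C, which works with the anaphase-promoting complex, 66.1 and 154 CPM (log2 ratio 1.22), AURKA, a spindle kinase, 120.0 and 261 CPM (log2 ratio 1.12), and CDC20 199.8 and 424 CPM (log2 ratio 1.09). The 8 E2F transcription factors had a median of 0.67, with E2F2 at 4.75 and 15.1 CPM (log2 ratio 1.66, 1.44 to 1.90) and, against the others, E2F7, a repressor, at 109.5 and 46.2 CPM (log2 ratio -1.24). Among 46 DNA replication genes the median was 0.13, with CDT1, which loads the replicative helicase, at 0.96, GINS3 at 1.15 and GINS2, of the same complex as GINS3, at -1.18. The G1 list held CDK6 (-2.89), 1 of the 15 lowest genes, and CCND3 (2.78), the highest of all those with at least 5 CPM, beside MYC (-1.06) and the inhibitor CDKN1B (0.83), and its median was -0.01. The share of cells in each phase was not measured.

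In the BCL2 family, which sets the threshold for apoptosis, 3 of 15 measured members were lower and none higher. The 3 are all death-promoting, and each held a miR-29 site. BMF had 24.5 and 3.29 CPM (log2 ratio -2.87, -3.15 to -2.64) and BAK1 32.1 and 10.1 CPM (log2 ratio -1.66). BBC3 had 2.03 and 0.846 CPM (log2 ratio -1.22, -1.85 to -0.70), from 90 and 38 counts, so its counting interval spans the 2-fold threshold. The survival genes MCL1 and BCL2, which also hold a site, had 80.1 and 86.4 CPM (log2 ratio 0.11) and 5.54 and 10.4 CPM (log2 ratio 0.90), and BCL2L1 a ratio of -0.02. Of 24 p53 target genes, 6 were lower and none higher (median -0.14), among them BTG2 (-2.03), TP53I3 (-1.95) and TNFRSF10B (-1.23), and CCNG1 had a ratio of 0.21.

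Chemokines and interleukins had a lower median than any matrix list (-1.02). Of 76 such genes 15 were measured, 14 had a ratio under 0, 8 were at least 2-fold lower and none higher, and 1 held a miR-29 site. CXCL8, the neutrophil chemoattractant interleukin 8, had 75.1 CPM in the control and 16.9 CPM in the mimic library (log2 ratio -2.15, -2.27 to -2.04). CX3CL1, fractalkine, had 18.7 and 3.98 CPM (log2 ratio -2.22), and IL6 10.7 and 2.60 CPM (log2 ratio -2.03, -2.35 to -1.75). IL32, with the highest CPM of the list in the control library, had 282 and 127 CPM (log2 ratio -1.15). CCL2 was described above, and the other members past 2-fold were CCL5 (-1.25), CXCL1 (-1.14) and CXCL2 (-1.02).

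NF-kB is the transcription factor that drives many of these cytokines. Of 23 measured subunit and feedback genes, 18 had a ratio under 0, 5 were lower and none higher (median -0.37). TRAF1, a signalling adaptor, had 27.0 and 7.5 CPM (log2 ratio -1.84), BIRC3, an inhibitor of apoptosis and ubiquitin ligase, 196 and 58.2 CPM (log2 ratio -1.75), and TNFAIP3, the feedback inhibitor A20, 29.7 and 9.71 CPM (log2 ratio -1.61). BIRC2 and TNIP1 followed with -1.59 and -1.08. The DNA-binding subunits RELA, NFKB1, REL and RELB lay within 2-fold (-0.14, -0.34, -0.37 and -0.42). Interferon-stimulated genes had a median of -0.38 with 2 of 28 lower, IFI44L (-1.90) and OASL (-1.06). Of 19 AP-1 and immediate early genes, 6 were lower and 2 higher, with ATF3 at -1.29, JUND at -1.20 and JUNB at -1.09 against EGR1 at 1.15 and SPRY4 at 1.09.

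Of 23 growth factor ligands, 4 were lower and none higher, HBEGF (19.2 and 3.72 CPM, log2 ratio -2.35) and the platelet-derived growth factors PDGFB (-1.59), PDGFA (-1.30) and PDGFC (-1.07), while VEGFA had 94.7 and 77.9 CPM (log2 ratio -0.28). In the TGF-beta pathway (34 measured, median -0.12), INHBA, the activin A subunit, had 125 and 18.6 CPM (log2 ratio -2.75), TGFB3 a ratio of -2.75 and INHBB, the activin B subunit, 1.08. Of 26 receptor tyrosine kinases, 1 was lower and 1 higher. They are AXL, with 1208 and 294 CPM (log2 ratio -2.04, -2.07 to -2.01), and MET, described above. Among 28 genes of the PI3K and AKT pathway the regulatory subunit PIK3R3 (-2.18), the catalytic subunit PIK3CD (-1.97) and FOXO4 (-1.46) were lower and 3 genes higher, IRS2, an insulin receptor adaptor, the farthest of them with 165 and 434 CPM (log2 ratio 1.39). WNT and Notch genes had a median of -0.29 (3 of 30 lower, 1 higher), with TCF7L1, FZD6 and MAML1 lower and WNT3 higher.

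Metabolic and stress lists had medians between -0.41 and 0.13, with single members far from 0. HIF pathway genes had a median of -0.19 (4 of 28 lower) and glycolysis genes of -0.10 (3 of 22 lower). SLC2A1, the main glucose transporter, had 452 and 216 CPM (log2 ratio -1.06), SLC16A1, a lactate transporter, 239 and 71.9 CPM (log2 ratio -1.73), and GAPDH 4243 and 4485 CPM (log2 ratio 0.08). Targets of NRF2, the antioxidant regulator, had a median of -0.41 with 5 of 23 lower, among them the cystine transporter SLC7A11 (-1.38), the pentose phosphate enzyme TKT (618 and 259 CPM, log2 ratio -1.26) and AKR1B10 (-2.18). Sterol and fatty acid genes had a median of -0.24 and 1 of 32 lower, INSIG1 (113 and 27.3 CPM, log2 ratio -2.05), which retains the sterol sensor in the endoplasmic reticulum.

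The unfolded protein response list had members at both ends around a median of 0.08. TRIB3, a pseudokinase of the stress response, had a ratio of -2.31, and SEL1L, of the machinery that degrades misfolded proteins, 75.8 and 216 CPM (log2 ratio 1.51), with PDIA4 (1.23) and DNAJC3 (1.21) also higher. Of 73 nuclear genes of the respiratory chain none passed 2-fold (median -0.11), nor did any of the 13 mitochondrial-encoded genes (median -0.17). Of 81 ribosomal protein genes 1 passed 2-fold, RPS24, with 268 and 120.1 CPM (log2 ratio -1.16), against a median of 0.13. Among 34 lysosome genes, PPT1 (-1.97) and TFEB (-1.09) were lower and SGSH (1.16) was among the higher ones. In the microRNA machinery (24 genes, median 0.00), XPO5, which exports precursors from the nucleus, had 183 and 86.8 CPM (log2 ratio -1.08) and CNOT7, a deadenylase that shortens the tails of microRNA targets, 36.0 and 118 CPM (log2 ratio 1.71). HMGA2, an architectural chromatin protein, had 56.5 and 196 CPM (log2 ratio 1.79).

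Families grouped only by the letters of their symbols, with no list chosen by function, were ordered by median ratio as a further description. Of 155 families with at least 10 measured protein-coding genes, the 5 lowest were COL (19 genes, median -0.62), H (60 genes, mostly histones, -0.59), ADAMTS (11 genes, -0.55), TNFRSF (13 genes, -0.53) and IL (25 genes, -0.49). The IL family takes in any symbol with these letters and is a different set from the 15 measured chemokines and interleukins. The 5 highest were GOLGA (11 genes, 0.34), SF (10 genes, 0.34), CNOT (11 genes, 0.30), RAD (17 genes, 0.27) and GPR (23 genes, 0.27). By gene type, 1008 long noncoding RNA genes had a median of -0.12, with 93 at least 2-fold lower (9.23%) and 31 higher (3.08%), and 47 snoRNA genes a median of 0.04, with none lower and 2 higher.

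The ratios were next set against miR-29 sites. Sites were searched on the transcript strand of the longest 3′ UTR of each gene, as TGGTGCT (7mer-m8), TGGTGCTA (8mer, included in the former), GGTGCTA without the former (7mer-A1) and GGTGCT alone (6mer). Of 11712 protein-coding genes with a 3′ UTR (7.08% lower and 2.76% higher), 2081 (17.8%) held TGGTGCT, and their median log2 ratio was -0.30, against 0.01 for the 9631 without. At least 2-fold lower were 17.9% of the former (exact 95% interval 16.3 to 19.6) and 4.73% of the latter (4.32 to 5.18). Intervals beside shares of genes, here and below, are binomial intervals over genes. They treat genes as independent and do not cover the variation between cultures. Of the 829 lower genes 373 held a site (45%), as did 32 of the 323 higher genes (9.91%). Among the 100 lowest ratios 50 genes held a site, and among the 100 highest 13.

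The type of match and its place in the 3′ UTR went with the ratio, while the number of matches did so less clearly. The share of genes 2-fold lower was 24.6% for 456 genes with an 8mer, 16.1% for 1625 with a 7mer-m8 only, 13.8% for 383 with a 7mer-A1, 8.80% for 1806 with a 6mer only and 3.28% for 7442 with none of these. By number, 17.3% of 1703 genes with 1 site, 20.0% of 300 with 2, 18.8% of 64 with 3 and 6 of 14 with 4 or more were 2-fold lower. The binomial intervals over genes of the groups with 1, 2 and 3 sites overlapped (15.6 to 19.2, 15.6 to 25 and 10.1 to 30.5). A single site within 500 nt of the stop codon went with 25.2% of 492 genes lower, one 500 to 2000 nt from it with 16.9% of 686, and one farther away with 10.5% of 525. By length of the 3′ UTR, the share among site genes was 35.1% in the shortest of 4 equal length classes (up to 681 nt) and 12.6% in the longest (over 3050 nt), against 3.44% and 5.21% of genes without a site in the same classes.

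Matches outside the 3′ UTR gave smaller shares. Genes with TGGTGCT in the coding sequence and none in the 3′ UTR were 2-fold lower in 7.19% of 2115 (6.12 to 8.37), against 4.04% of 7516 with neither (3.61 to 4.51), with medians of -0.11 and 0.04. A match in the 5′ UTR alone went with 9 of 113 genes lower and a median of 0.03. For the other strand of the miR-29 duplex, the match to nucleotides 2 to 8 of natural miR-29b-1-5p (AAACCAG) was searched. Genes with it and no miR-29 site had a median of 0.03 over 1615 genes. Of these, 5.02% were lower, against 4.68% of 8016 genes with neither. The mimic's own other strand was not examined, so these values do not describe it.

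**Figure D3:**
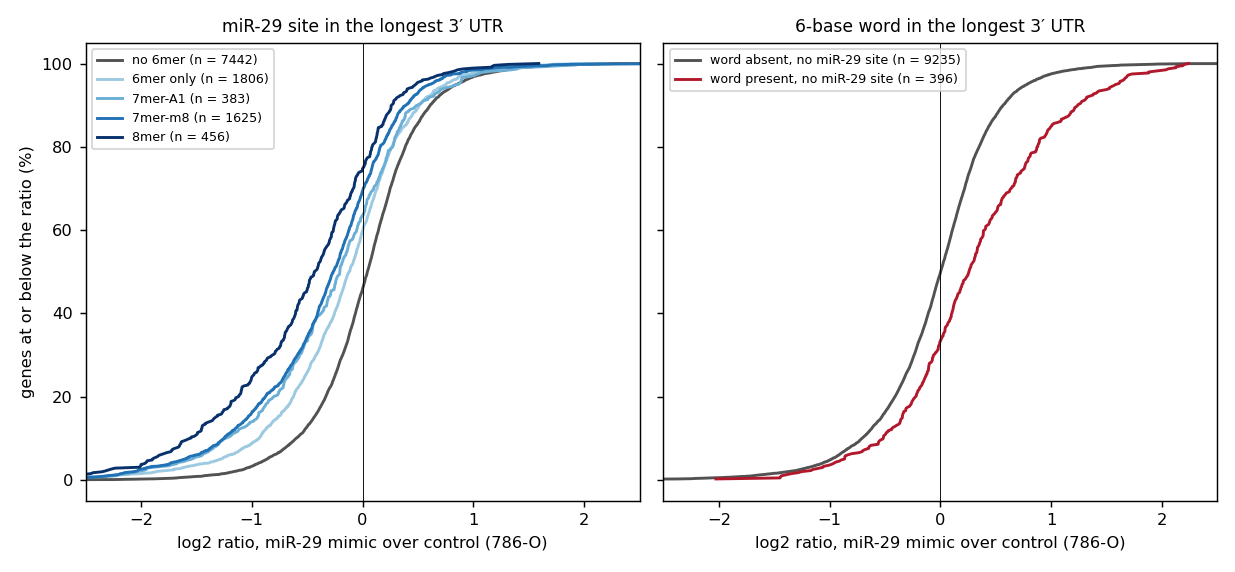
Cumulative share of protein-coding genes (y axis, percent) at or below each log2 ratio of CPM, miR-29 mimic over control mimic in 786-O (x axis), by type of miR-29 match in the longest 3′ UTR (left) and by presence of a 6-base word described below, among genes with no miR-29 site (right). On the left the curves shift to lower ratios from no match to 8mer, and on the right the curve of the 396 genes with the word lies at higher ratios (median 0.26 against 0.00).

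All 7-base words found in the 3′ UTRs of at least 150 measured genes, 15266 in number, were then ordered by the difference in median log2 ratio between genes with and without the word. On the lower side the first 3 were GGTGCTA (998 genes, difference -0.32), TGGTGCT (2081 genes, -0.31) and CGGTGCT (419 genes, -0.30), all of which hold the 6 bases that pair with miR-29 nucleotides 2 to 7. On the higher side the first 3 were GACGTAT (189 genes, difference 0.33), AGACGTA (218 genes, 0.27) and TGACGTA (207 genes, 0.18), which share the word GACGTA. These 3 words were also the first 3 of all words by share of genes at least 2-fold higher, with 15.3% for GACGTAT, 13.5% for TGACGTA and 11.9% for AGACGTA. The word was picked after these values were seen, so its values are a description, with no test.

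Of the 11712 genes, 584 (4.99%) held GACGTA in the 3′ UTR on the transcript strand, and their median log2 ratio was 0.15, against -0.04 for the others. At least 2-fold higher were 68 of the 584 (11.6%) and 255 of the 11128 others (2.29%), and at least 2-fold lower 4.28% and 7.22%. Without genes that hold a miR-29 site the median was 0.26 (396 genes, 15.2% at least 2-fold higher) against 0.00 (9235 genes, 2.5%). The 188 genes with both had a median of -0.04. The higher share held in each class of 3′ UTR length, from 31.8% of 22 genes in the shortest to 10.4% of 337 in the longest, against 2.0% to 2.78% of genes without the word. No mature human microRNA among 2370 names in the RefSeq table has nucleotides 2 to 7 that pair with GACGTA, while 3 pair with TGGTGCT through nucleotides 2 to 8. Of the 15 highest genes named above, 6 hold the word, and their sequence around it is shown with the word in capitals, to let the flanks be compared.
CDK19, 2222 nt after the stop codon (chr6:110612296-110612325, minus strand): acaaaaggcattGACGTAtctttgaaatgt
FAM217B, 1266 nt after the stop codon (chr20:59946349-59946378, plus strand): gtatttgtttttGACGTAgaggtttcaatt
MCFD2, 381 nt after the stop codon (chr2:46905172-46905201, minus strand): gctgctgataaaGACGTAcccgagactggg
MET, 1475 nt after the stop codon (chr7:116797587-116797616, plus strand): actggttttgtcGACGTAaacatttaaagt
MSRB3, 3335 nt after the stop codon (chr12:65466645-65466674, plus strand): cttaatgcaaatGACGTAgcaatttgaaaa
PIP4K2A, 1219 nt after the stop codon (chr10:22535965-22535994, minus strand): gtcatattttgaGACGTAtcctgcagccat
The coordinates are in GRCh38. In A-498, given a mimic and a control mimic as well, genes with GACGTA had a median log2 fold change of -0.08 against -0.02 for those without, and GACGTAT a difference of 0.05. The difference between the lines was not tested.

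**Figure D4:**
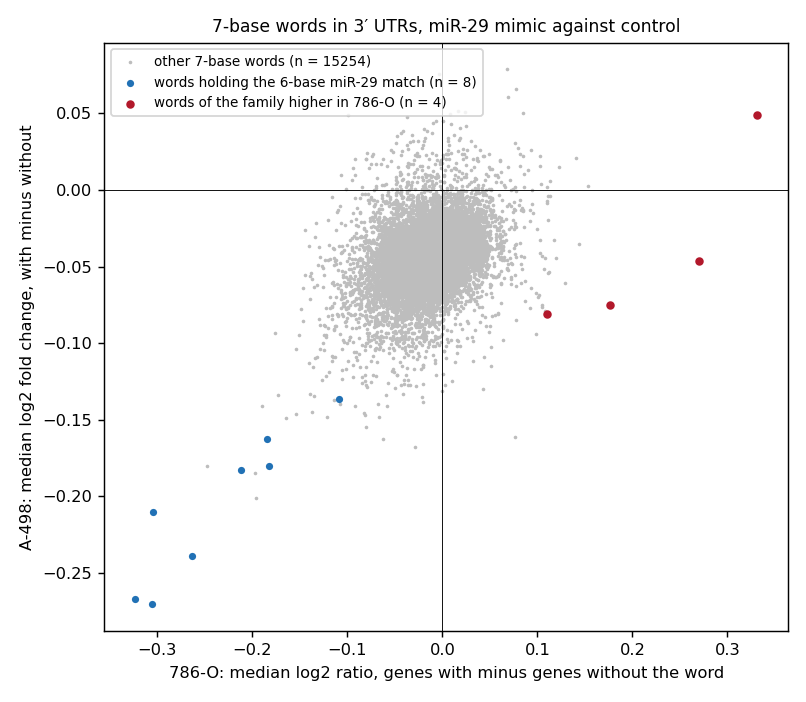
Each point is 1 of 15266 words of 7 bases in 3′ UTRs, with the difference in median log2 ratio between genes with and without it in 786-O on the x axis and the same difference of A-498 log2 fold changes on the y axis, both for miR-29 mimic against control mimic. The 8 words that hold the 6-base miR-29 match (blue) are low on both axes, and the 4 words of the family that is highest in 786-O (red) lie at 0.11 to 0.33 on the x axis and from -0.08 to 0.05 on the y axis.

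Genes past 2-fold in 786-O were looked up in the replicated comparisons, edgeR calls at an adjusted p of 0.05. Among protein-coding genes measured in 786-O, 36.3% of 11490 were called lower and 30.4% higher with the mimic in A-498, and 19.1% of 11411 lower and 22.2% higher with the inhibitor in ACHN. Of the 829 lower genes, 802 were tested in A-498, where 633 (78.9%) were called lower and 77 (9.60%) higher, and 782 in ACHN, where 515 (65.9%) were called higher and 21 (2.69%) lower. Both calls applied to 432 of 768 of them tested in both lines (56.2%), against 1582 of 11272 of all protein-coding genes measured in 786-O (14%). Lower genes with a site were called lower in A-498 in 85.5% of 365 cases, those without in 73.5% of 437. Of the 323 higher genes, 299 were tested in A-498, where 152 (50.8%) were called higher and 48 (16.1%) lower, and 296 in ACHN, where 104 (35.1%) were called lower and 30 (10.1%) higher. Among higher genes with GACGTA, 25 of 66 were called higher and 18 lower in A-498, and among those without 127 of 233 and 30.

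Of the leading genes, CCDC167 had log2 fold changes of -3.24 in A-498 (edgeR adjusted p = 5.16e-11) and 1.01 in ACHN (adjusted p = 3.27e-08), and ADAM19 of -1.91 (adjusted p = 3.51e-12) and 1.01 (adjusted p = 1.46e-09). TNFRSF9 had a log2 fold change of -0.52 in A-498 (adjusted p = 4.82e-05). On the higher side, STMN1 had a log2 fold change of -0.04 in A-498 (adjusted p = 0.417), MET of 0.16 (adjusted p = 4.63e-04) and CALU of -0.40 (adjusted p = 1.17e-07). HMGA2, higher in 786-O, rose in A-498 with 2.53 (adjusted p = 3.82e-12), as did AIF1L (1.6, adjusted p = 9.02e-09) and TM4SF4 (2.65, adjusted p = 2.12e-06). With the inhibitor in ACHN, HMGA2 had a log2 fold change of 0.39 (edgeR adjusted p = 2.51e-05), AIF1L of 0.05 (adjusted p = 0.456) and TM4SF4 of -1.17 (adjusted p = 6.12e-12). TM4SF4 was low in A-498, at 0.268 CPM in its controls and 1.65 CPM with the mimic. These lines differ in genotype and in the number of libraries, and a difference in size between them was not tested. The libraries differ in content too. Reads left out of the gene counts made up 45.7% and 48.0% in 786-O, against 37.2% to 40.6% in the other lines. MT-ND1, a mitochondrial-encoded gene, had 5711 CPM in the 786-O control, against control means of 38.0 in A-498 and 57.6 in ACHN. The part of these differences in comparisons between lines was not tested.

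Calls in A-498 are given next for some of the lists, to be read beside 36.3% lower and 30.4% higher among all genes there. Most members of these lists lay within 2-fold in 786-O, except among chemokines and interleukins, and the difference between the lines was not tested. Of 14 chemokines and interleukins tested in A-498, 8 were called higher and 3 lower, with CXCL8 at 3.23 (adjusted p = 2.49e-13) and IL6 at 2.06 (6.06e-10). Of 23 genes around NF-kB 15 were called higher and 5 lower, of 19 AP-1 and immediate early genes 16 higher and 1 lower, and of 24 p53 targets 23 higher and none lower. Of the 50 mitosis genes, 30 were called lower and 8 higher in A-498, and with the inhibitor in ACHN 28 lower and 4 higher. Of 19 collagens 10 were called lower and 6 higher in A-498, of 23 collagen maturation enzymes 17 lower and 2 higher, and of 48 histones 44 lower and none higher. ACHN calls are to be read beside 19.1% lower and 22.2% higher there. Called higher in ACHN were 6 of 13 chemokines and interleukins (1 lower), 9 of 23 genes around NF-kB (2 lower) and 8 of 19 AP-1 genes (3 lower). So were 15 of 24 p53 targets (2 lower), 13 of 17 collagens (none lower), 12 of 22 maturation enzymes (1 lower) and 4 of 48 histones (7 lower).

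**Figure D5:**
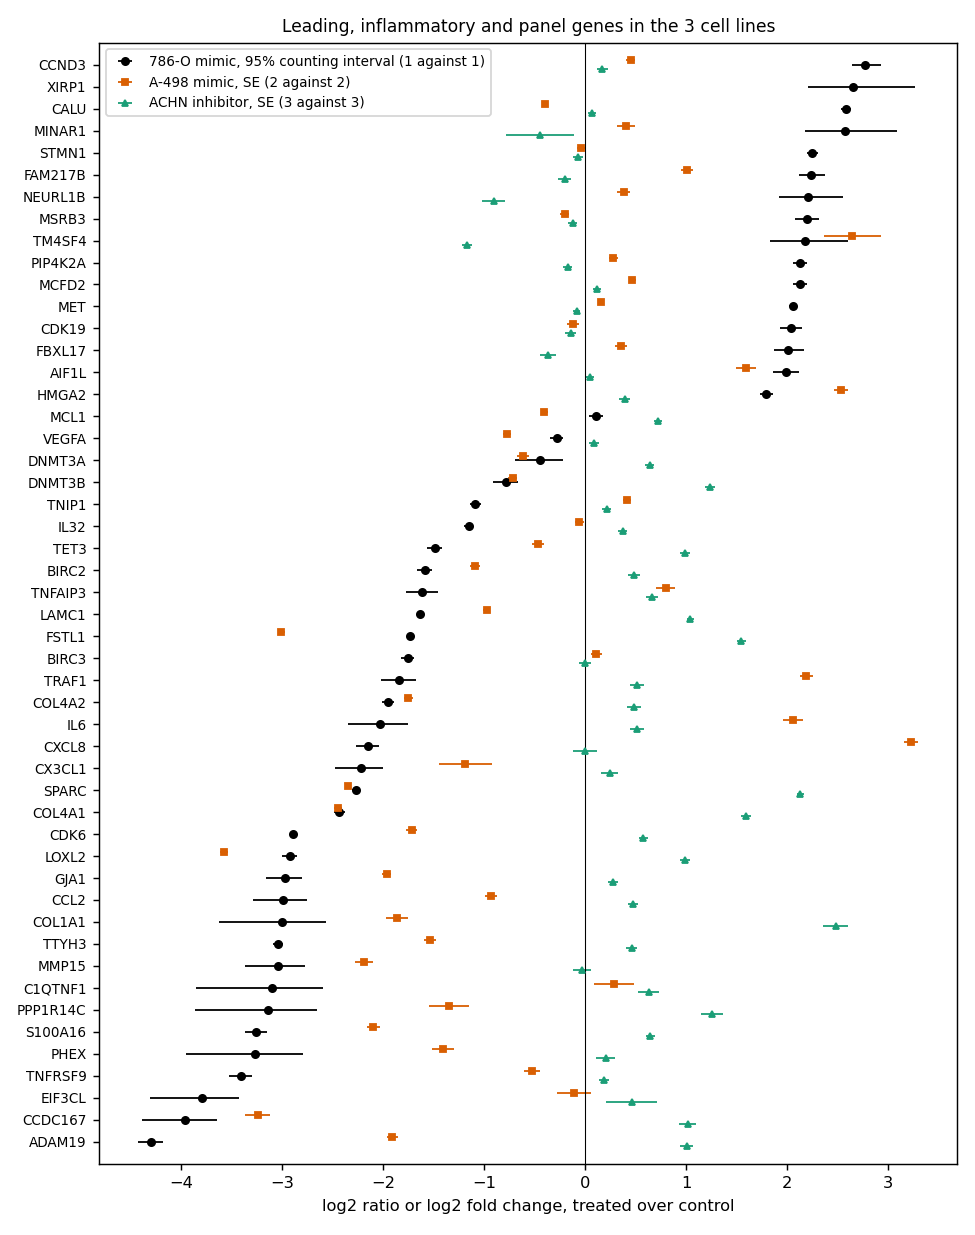
Log2 ratio in 786-O (black circles with 95% counting intervals, 1 library against 1) beside log2 fold changes with standard errors in A-498 (orange squares, mimic, 2 against 2) and ACHN (green triangles, inhibitor, 3 against 3), for the 15 lowest and 15 highest genes, the named inflammatory genes and a panel of miR-29-related genes; a missing symbol means the gene was not tested in that line. Matrix genes such as COL4A1 and SPARC are low in both mimic comparisons and high with the inhibitor. CXCL8, IL6, TRAF1 and TNFAIP3 are low in 786-O and high in A-498. With the inhibitor in ACHN, IL6, TRAF1 and TNFAIP3 are also higher (0.52, 0.52 and 0.66), and CXCL8 is not (-0.00075).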

How the data were processed

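Ribosomal RNA-depleted stranded libraries were sequenced as paired reads. The deposited values are raw read counts per Ensembl gene, made by the authors with HISAT2 alignment to GRCh38 and HTSeq-count in its intersection-strict mode (Ensembl release 87); versions of these tools are not given in the sources used here. The authors' DESeq2 tables hold log2 fold changes and p-values and were not used, and 2 A-498 libraries that the study left out were not analysed here. Rows that name no gene (reads in no gene feature, ambiguous or of low mapping quality) held 45.7% and 48.0% of the reads in the 786-O control and mimic libraries and stayed out of library sizes.

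For 786-O, counts were scaled with TMM in edgeR 4.0.16 (R 4.3.3; factors 0.988 and 1.012) and the log2 ratio of CPM was taken with a prior count of 2, for genes with at least 100 counts. Intervals of log2 ratios are exact Clopper-Pearson intervals of the mimic library's share of the 2 counts, at 95%, and cover counting error only. Those of shares of genes are exact 95% binomial intervals over genes. Of 58051 gene identifiers, 56948 were matched to a GENCODE 44 symbol. A-498 and ACHN were fitted with edgeR's quasi-likelihood test, filtered on low counts, with Benjamini-Hochberg adjustment; the study calls their replicates biological and does not say whether these were transfected on separate days. The test was checked on simulated data. 3′ UTRs came from GENCODE 44, and the 19 windows written out equal the GRCh38 genome sequence at their coordinates. Named genes are the 15 lowest and 15 highest ratios with at least 5 CPM in a library, for each list up to 4 members farthest from 0 and the one with the highest CPM, and a panel of 16 genes; EIF3C, ENTPD4, PAX8, CCL5, CXCL1, CXCL2, RELA, NFKB1, REL, RELB, JUNB, EGR1, SPRY4, CA9 and NDUFA4L2 were named after their values were seen. A few genes that this rule names are not reported here. The gene lists and members were chosen with earlier results of these data known. Alternatives were other scaling (library size, DESeq2 1.42.0 size factors), count minimums, prior counts, 3′ UTR definitions, DESeq2, no filter, a replicate block and leaving out each A-498 or ACHN library.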

Additional observations from a re-analysis of the deposited data

Results flagged for a closer look

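Reported genes that were past 2-fold in 786-O and were called in the opposite direction in A-498, by at least 1.5-fold and with no overlap between the A-498 groups, are given here. The difference between the lines was not tested. Lower in 786-O and higher in A-498 were CXCL8 (786-O log2 ratio -2.15, A-498 log2 fold change 3.23), IL6 (-2.03 and 2.06), BTG2 (-2.03 and 1.00), TRAF1 (-1.84 and 2.19), TNFAIP3 (-1.61 and 0.80), KDM6B (-1.33 and 0.66), and ATF3 (-1.29 and 2.40). With the inhibitor in ACHN, IL6 (log2 fold change 0.52), BTG2 (0.97), TRAF1 (0.52), TNFAIP3 (0.66) and ATF3 (0.50) were called higher. CXCL8 (-0.00075) and KDM6B (-0.08) were not called there. Higher in 786-O and lower in A-498 were INHBB (1.08 and -1.20), H2BC14 (1.22 and -0.95) and PDIA4 (1.23 and -0.74). H2BC14 was low in 786-O, at 1.49 and 3.52 CPM, and its counting interval (0.82 to 1.68) spans 2-fold. In ACHN, H2BC14 was called lower (log2 fold change -0.31), PDIA4 was not called (0.08) and INHBB was not tested. In A-498 the mean level of CXCL8 was 4.66 ± 0.095 CPM with the control and 42.9 ± 1.16 CPM with the mimic (SD, n = 2 each), and that of ATF3 22.3 ± 0.290 and 115 ± 0.492 CPM. KDM6B was low in A-498, at 2.86 ± 0.205 CPM in its controls.

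Reads assigned to no gene feature, which include intronic and exon-edge reads and which no comparison uses, made up 18.3% of the 786-O mimic library and 14.3% of the control library.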

How the results depend on the processing

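The 786-O comparison has 1 library a side, so no setting can show how far another culture would differ. The counts of genes past 2-fold depended on the minimum count. With at least 10 counts 1850 genes were lower and 1362 higher, of 20370, and with at least 1000 counts 561 and 192, of 9287, so that the share of higher genes among those past 2-fold went from 29.3% to 42.4% and 25.5%. Scaling by library size gave 885 lower and 439 higher, and moved the median of all genes from -0.03 to 0.00. DESeq2 size factors and prior counts of 0.5 or 10 stayed within 1.5 times. The number of lists with a median of -0.5 or lower, 10, was 8 to 11 under the alternatives, and the claudin median turned to 0.23 with at least 10 counts, where more claudins are included. Of 984 values of named genes under other scaling or prior counts, none changed sign and 48 left their counting interval. The share of site genes 2-fold lower was 23.7% for genes with 1 and the same single-exon 3′ UTR in all isoforms, searched over its first 2000 nt, and 24.6% for 8mer sites. The share of GACGTA genes 2-fold higher was 15.2% without miR-29 site genes and 11.5% in genes with 1 single-exon 3′ UTR, both chosen after seeing the data. All counts of A-498 and ACHN calls stayed within 1.5 times. Without 1 library, the lower genes called lower in A-498 numbered 606 to 640 and the higher genes called higher 135 to 154, and in ACHN those called higher 470 to 512 and those called lower 84 to 113; where 1 library was left in an A-498 group it was assumed to vary like the others. With the replicate number as a block in ACHN, 522 lower genes were called higher and 103 higher genes called lower, against 515 and 104 without it. Same-numbered ACHN libraries did not deviate together (correlations 0.0417, -0.0505 and -0.00476), so the number does not pair them. In 786-O and A-498, unlike ACHN, no such fit could be made. In these lines no paired analysis was possible because the 786-O groups hold 1 library each and the A-498 groups share only 1 replicate number. Depth limits single values most at low counts, where intervals are wide.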
